A study of Mus musculus with 17 samples.

Results

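Dysplastic lesions were compared with unaltered lung tissue of the same animals in transgenic mice, on 8 of the 17 arrays of the series. The 4 arrays labelled as lung dysplastic lesion and the 4 labelled as transgenic unaltered were paired by the animal identifier in their labels, which gave 4 pairs. The within-pair difference, dysplasia minus unaltered on the log2 scale, is described for the 14939 of 23238 transcript clusters that carry 1 gene symbol (a transcript cluster is the array's unit for a gene). All 8 arrays came from transgenic males, aged 5 months in pair 2 and 6 months in pairs 1, 3 and 4. In this line the surfactant protein C promoter expresses a transgene in alveolar epithelium, so both groups carry it, and the labels call unaltered the transgenic lung taken outside lesions. Tissue was cut by laser from stained cryosections. In pair 2 the label of both arrays names 2 animals. For a further comparison, 4 adenocarcinomas of transgenic mice aged 11.5 to 14 months and 5 lungs of non-transgenic mice aged 7 to 11 months were used, of which no array belongs to a pair. Both of these groups held arrays labelled male and arrays labelled female.

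Growth factor receptors signal through RAS and MEK to the kinase ERK, which enters the nucleus and switches on genes of proliferation together with its own inhibitors, such as dual-specificity phosphatases and Sprouty proteins. Alveolar type II cells make surfactant and are the progenitors of the alveolus. They give rise to the flat type I cells that lie against the capillary network, and in injured mouse lung they pass through a transitional state rich in keratins and claudins.

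Array medians ran from 6.67 to 6.77 in unaltered tissue and from 6.81 to 6.85 in dysplasia, and the median difference was 0.06 over all transcript clusters and 0.04 over those with 1 symbol. Lung markers were high on all 8 arrays, with surfactant protein C (Sftpc) between 14.16 and 14.24 and the type I cell receptor Ager between 12.59 and 12.77. The Y-linked gene Kdm5d lay between 7.09 and 7.56 on the 8 arrays, high as their male labels imply, whereas on 4 of the other 9 arrays it and Eif2s3y went against the label. Nothing in the labels gives separate dissections within an animal, so p-values measure the spread between these 4 pairs.

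In limma's paired test, 1881 of all transcript clusters were called at a Benjamini-Hochberg adjusted p below 0.05, 8.09% of them, with 1435 (6.18%) higher and 446 (1.92%) lower in dysplasia. Among clusters with 1 symbol, 1144 rose (7.66%) and 375 fell (2.51%), 10.2% together, each in the same direction in all 4 pairs. Of all 1-symbol clusters, called or not, 30.5% were higher in all 4 pairs and 16.5% lower. The rises were also the larger changes: 151 of them reached 2-fold, against 8 of the falls. With the animal as a random instead of a fixed block, 15.2% rose and 4.96% fell, and 1443 of the 1519 calls were made in both fits. Called genes were 75.3% rises with the deposited scaling, 50.8% after quantile normalization and 55.3% after cyclic loess between the 8 arrays, so the balance of rises and falls moved with the scaling. The pieces are mixtures, in which the number of cells of a type and the RNA of each cell cannot be told apart. With any 1 pair left out the paired limma test, then with 2 residual degrees of freedom, called 0 clusters, although 4825 to 6168 had an unadjusted p below 0.05 against 6651 with all pairs. The random block called 544 clusters without pair 2, 1199 without pair 4, 1269 without pair 1 and 2634 without pair 3, against 3688 with all pairs. Counts for single gene lists below are to be read beside these shares and totals.

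**Figure D1:**
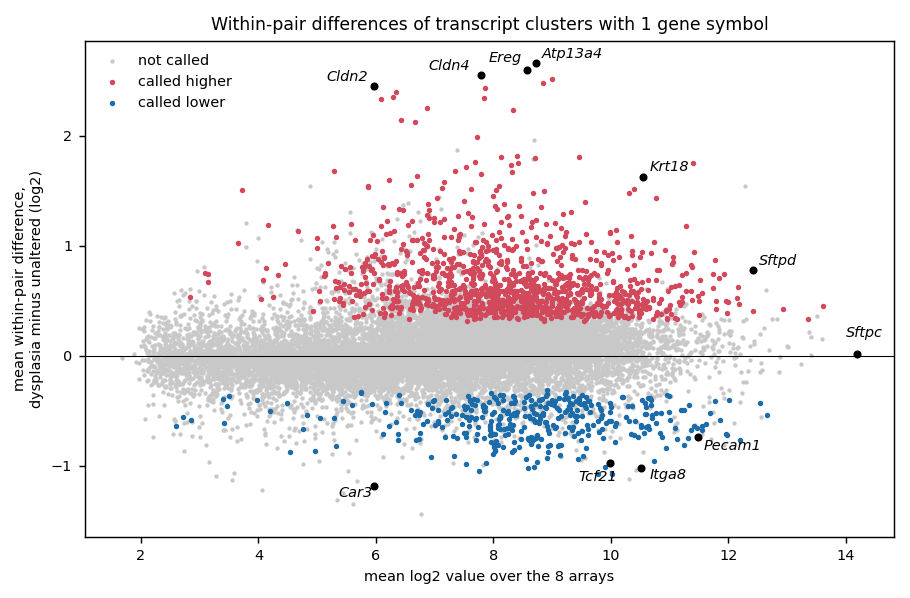
Mean within-pair difference (y axis, log2) against the mean log2 value over the 8 arrays (x axis) for each of the 14939 transcript clusters with 1 gene symbol, with called rises in red, called falls in blue and named examples in black. Among the named examples, rises reach 2.66 (Atp13a4) and falls reach -1.18 (Car3), and Sftpc, at the right, lies at 0.02.

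Rises and falls were ranked without unnamed gene models, immunoglobulin and T cell receptor segments, olfactory and vomeronasal receptors and small RNA genes. The largest rise among the called 1-symbol clusters that remained was that of Atp13a4, which encodes a cation-transporting ATPase. Its log2 values were 9.88, 10.13, 10.34 and 9.89 in the dysplasias of pairs 1 to 4 and 7.42, 7.28, 7.77 and 7.13 in the unaltered tissue. All dysplasias lay far above all unaltered pieces, a difference of 2.66 ± 0.09 (± is limma's SE over 4 pairs here and throughout; 6.32-fold; adjusted p = 0.00797). Ereg, which encodes epiregulin, a ligand of the EGF receptor family, read 9.08, 10.36, 10.94 and 9.12 in dysplasia and 6.43, 7.55, 8.26 and 6.84 in unaltered tissue. Pairs 2 and 3 were the higher ones in both tissues, the unaltered value was lowest in pair 1 and highest in pair 3 as for the airway genes, the groups did not overlap, and the difference was 2.60 ± 0.11 (adjusted p = 0.00815). Cldn4, a tight junction claudin, rose from 6.38, 6.64, 6.86 and 6.22 to 8.95, 9.04, 9.27 and 9.03, by 2.55 ± 0.10 (adjusted p = 0.00797). St8sia6, a sialyltransferase, rose by 2.51 ± 0.07 and Fetub, the plasma protease inhibitor fetuin-B, by 2.48 ± 0.14. The other rises among the 12 largest were those of the claudin Cldn2 (2.45), the calcium-binding protein S100a14 (2.43), the synaptic organiser Cbln1 (2.40), the gastrokine Gkn2 (2.35), the receptor tyrosine kinase Ros1 (2.35), the aldo-keto reductase Akr1c19 (2.34) and the inter-alpha-trypsin inhibitor chain Itih2 (2.25). In none of the 12 did the arrays of dysplasia and unaltered tissue overlap. Overlap was absent in 19.7% of all 1-symbol clusters with dysplasia higher and in 7.48% with dysplasia lower.

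**Figure D2:**
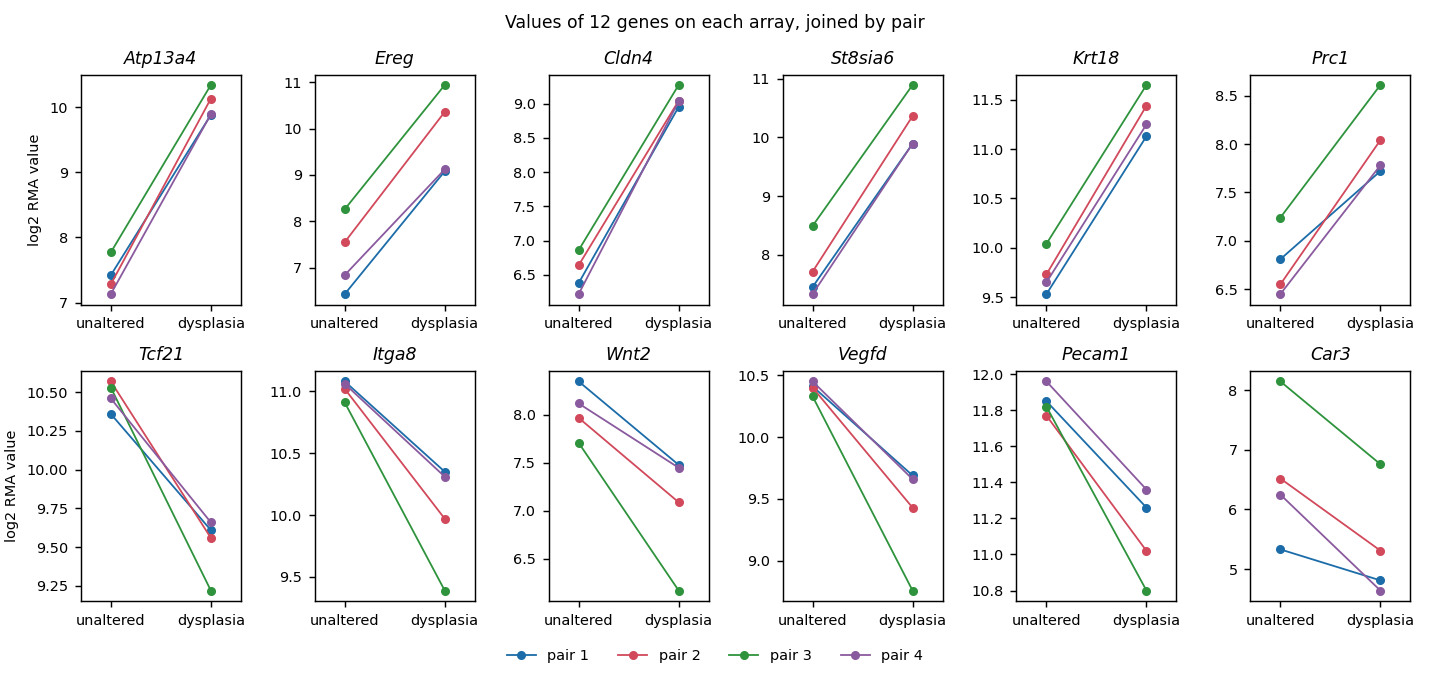
Log2 RMA values (y axis of each panel) of 12 genes in the unaltered tissue and the dysplasia of each of the 4 pairs, each pair joined by a line of its own colour. The upper row shows genes that rose, with Atp13a4, Ereg, Cldn4 and St8sia6 up by more than 2, and the lower row genes that fell, of which Car3 has overlapping groups.

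Genes of the epithelial surface rose together. Of 26 measured genes of adherens junctions, polarity and the epithelial surface, 17 rose and 0 fell, with a median difference of 0.69 against 0.04 over all 1-symbol clusters. Rab25, a small GTPase of epithelial recycling endosomes, read 9.0, 8.97, 9.44 and 9.05 in dysplasia against 7.89, 7.72, 7.97 and 7.79, a rise of 1.27 ± 0.08 (adjusted p = 0.0122). The serine protease inhibitor Spint1 was nearly uniform within each tissue, at 10.08, 10.12, 10.14 and 10.19 against 8.97, 9.03, 9.04 and 9.04. It rose by 1.11 ± 0.06 (adjusted p = 0.00968). The epithelial splicing regulator Esrp1 rose by 1.20 ± 0.10, the adhesion molecule Epcam by 1.09 ± 0.09, the transcription factor Grhl2 by 1.05 and the membrane protease Prss8 by 1.01. E-cadherin (Cdh1) was higher by 0.35 ± 0.07 and missed the threshold in the paired test (adjusted p = 0.0566) but not with the random block (adjusted p = 0.0276). That fit without 1 pair called 12 (without pair 2) to 18 of the 26. In unaltered tissue Epcam was lowest in pair 1 (9.49) and highest in pair 3 (10.33), as airway genes were. Its dysplasias had the same order, from 10.70 in pair 1 to 11.21 in pair 3.

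Of 23 measured genes of tight junctions, 10 rose and 1 fell (median 0.37). Beside Cldn4 and Cldn2, Cldn3 rose from 8.52, 8.57, 8.52 and 8.56 to 9.61, 9.96, 10.05 and 9.71, by 1.29 ± 0.10 (adjusted p = 0.0148). The unaltered pieces were thus nearly equal and all lay below the dysplasias. Cldn7 rose by 0.97 and Cldn1 by 0.74, whereas Cldn6 fell by 0.54, a call lost with the random block (adjusted p = 0.0587), and Cldn5, the claudin of endothelium, differed by -0.62 without a call. Scaffold and barrier proteins differed less, with occludin (Ocln) at 0.18 and Tjp1 at -0.20, both not called. With the random block, 4 of the 23 rose without pair 2, against 13 with all pairs.

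Among 16 measured genes of desmosomes and keratins 5 rose and 0 fell (median 0.24). Krt18, a keratin of simple epithelia, read 11.13, 11.44, 11.65 and 11.25 in dysplasia and 9.53, 9.73, 10.04 and 9.65 in unaltered tissue. The dysplasias lay above all unaltered pieces by a difference that was alike in the 4 pairs, 1.63 ± 0.06 (3.10-fold; adjusted p = 0.00797). Krt23 rose by 1.37 ± 0.07 and Krt19 by 0.94 ± 0.09, while the basal cell keratins Krt5 and Krt14 differed by -0.14 and -0.01 and were not called. Perp, a desmosome protein, rose by 0.69. Of the 16, 7 rose and 1 fell with the random block, and 3 rose without pair 2. The unaltered values of Krt18 were lowest in pair 1 and highest in pair 3, as those of airway genes were. Its dysplasias had the same order.

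Of 21 genes that mark the transitional alveolar state, 9 rose and 0 fell (median 0.79), a list that shares Ereg, Cldn4, Krt18 and Krt19 with the groups above. Clu, the secreted chaperone clusterin, rose from 10.30, 10.57, 10.89 and 10.30 to 12.20, 12.29, 12.38 and 12.21, by 1.76 ± 0.10 (adjusted p = 0.00968). The receptor Tnfrsf12a rose by 0.89 and tissue factor (F3) by 0.81. The cell cycle inhibitor Cdkn1a and stratifin (Sfn) were higher by 0.82 and 0.79 without a call, and Lgals3 and Itgb6, used as markers of the same state, differed by 0.05 and 0.11. Of the 21, 3 were called with the random block without pair 2, and 7 to 9 without any other pair.

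Type II cell genes moved unevenly. Of 28 measured, 12 rose and 0 fell (median 0.30). The lysosomal protease Ctsh rose from 10.45, 10.74, 10.92 and 10.65 to 11.59, 12.03, 12.10 and 11.78, by 1.18 ± 0.07 (adjusted p = 0.00968). The chloride transporter Slc26a9 rose by 1.03 ± 0.13, Sftpd by 0.78 ± 0.07, the protease Ctsc by 0.75, the lipid transporter Abca3 by 0.40 and Sftpb by 0.34. Sftpc differed by 0.02 ± 0.06 (adjusted p = 0.864) at the upper end of the deposited values. Lamp3, at 0.25, and Etv5, an ETS factor downstream of ERK in type II cells, at 0.38, were not called in the paired test (adjusted p = 0.075 and 0.0712), although their groups did not overlap, and were called with the random block (adjusted p = 0.033 and 0.0201). With the random block, 17 of the 28 were called with all pairs and 7 without pair 2.

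Of 20 measured type I cell genes, 4 rose and 4 fell (median -0.31), and after quantile normalization 2 rose and 10 fell. Hopx, a transcriptional regulator of type I cells, read 9.66, 9.59, 9.35 and 9.85 in dysplasia against 10.18, 10.19, 10.21 and 10.32. It fell by 0.61 (SE 0.09, adjusted p = 0.0336). Caveolin 1 (Cav1), shared with endothelium, fell by 0.63, Spock2 by 0.71 and Pxdc1 by 0.73. The water channel Aqp5 rose by 0.48 and Cldn18 by 0.41, genes that mouse type II cells also express, and Ager differed by 0.05. With the random block 4 rose and 9 fell, and 0 rose and 1 fell once pair 2 was left out.

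Of 20 transcription factors of lung epithelium, 8 rose and 0 fell, and 5 rose after either rescaling. Foxp2, a forkhead factor of distal lung epithelium, rose from 7.41, 7.29, 7.50 and 7.35 to 8.73, 8.65, 8.83 and 8.69, by 1.34 ± 0.06 (adjusted p = 0.00823). Within each tissue its 4 values lay close together, and the tissues did not overlap. Foxa2 rose by 0.76, Cebpa by 0.72 and Klf5 by 0.59, and Sox9, a factor of the embryonic lung tip, differed by -0.17 with overlapping groups. The list median was 0.41, and the random block called 11 higher with all pairs and 2 without pair 2.

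Some genes of the neuroendocrine list and of the gastrointestinal and mucin list rose without the rest of their lists. Of 17 measured neuroendocrine genes, 3 rose, namely Cbln1 and the granule proteins Ptprn and Ptprn2. Ptprn read 9.04, 9.62, 10.04 and 9.11 in dysplasia and 6.93, 7.14, 7.78 and 7.04 in unaltered tissue, a rise of 2.23 ± 0.09 (4.70-fold; adjusted p = 0.00815). The defining neuroendocrine genes Chga, Syp and Insm1 differed by -0.16, -0.21 and -0.11 and were not called, and the list median was -0.05. Of 24 gastrointestinal and mucin genes, 5 rose (median -0.04), among them Gkn2, Muc4 (0.94) and Hnf4a (0.43), while Gkn1, Tff1 and Cdx2 differed by 0.02, -0.18 and -0.26 without a call in the paired test, of which Cdx2 was called with the random block (adjusted p = 0.0364). That fit called 5 of the 24 higher with all pairs and 2 without pair 2, and of the neuroendocrine genes 3 and 2.

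Ligands of the EGF family and targets of ERK rose as well. Of 16 measured EGF family and ERBB genes, 8 rose and 0 fell (median 0.52). Besides Ereg these included the ligands Btc (1.06 ± 0.07), Hbegf (0.87 ± 0.14) and Tgfa (0.74), the receptors Erbb3 and Erbb2 and the feedback inhibitors Errfi1 (0.59) and Lrig1 (0.45). Errfi1 was not called with the random block (adjusted p = 0.0833). Erbb3 read 10.13, 10.13, 10.27 and 10.17 in dysplasia and 9.12, 9.06, 9.11 and 9.25 in unaltered tissue. It rose by 1.04 ± 0.07 with all dysplasias above all unaltered pieces (adjusted p = 0.0126), and Erbb2 rose by 0.75. Egfr itself differed by -0.46 ± 0.11, lower in all 4 pairs, and was called with the random block (adjusted p = 0.0215) but not in the paired test (adjusted p = 0.0708). Of the 16 genes, 9 rose with the random block and 4 without pair 2.

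Of 28 genes of ERK output and feedback, 10 rose and 1 fell (median 0.39). Dusp6, the ERK phosphatase, read 11.12, 11.51, 11.77 and 11.19 in dysplasia and 10.38, 10.47, 10.49 and 10.41 in unaltered tissue. The groups did not overlap and the rise was 0.96 ± 0.11 (adjusted p = 0.0254). Dusp4 rose by 0.96, Spry2 by 0.92, Epha2 by 0.92, the cyclin D gene Ccnd1 by 0.75 and Spred1 by 0.69. Myc rose by 0.82 ± 0.11 within pairs (adjusted p = 0.0292), but its values, 8.02, 8.35, 8.85 and 8.05 against 7.03, 7.34, 8.08 and 7.53, overlapped between the tissues, with pair 3 high in both. The 1 member that fell, Ier3, fell by 0.49, and Spry4, Dusp1 and Fosl1 differed by 0.09, -0.21 and -0.09 without a call. Of 19 kinases and adaptors of the RAS, MEK and ERK chain, 1 rose, Map2k1, which encodes MEK (0.47 ± 0.06), and the list median was 0.04. Of the 28 output genes the random block called 12 higher with all pairs and 4 without pair 2.

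Of 44 measured mitosis genes, 30 rose and 0 fell, all 44 had a mean difference above 0, and the median was 0.67. The transcription of many of these genes is repressed in resting cells by a complex that binds promoters at a short element, the cell cycle homology region, with the core letters TTTGAA. The promoters of the 3 called members with the largest rise that hold these letters are shown, each 120 bases before to 30 bases after the RefSeq start on GRCm38.p6, with TTTGAA in capitals.
Prc1, chr7:80294331-80294480, plus strand: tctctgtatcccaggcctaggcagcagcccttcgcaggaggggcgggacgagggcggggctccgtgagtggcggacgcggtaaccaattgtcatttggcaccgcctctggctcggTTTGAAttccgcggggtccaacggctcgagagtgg
Kif23, chr9:61946770-61946919, minus strand: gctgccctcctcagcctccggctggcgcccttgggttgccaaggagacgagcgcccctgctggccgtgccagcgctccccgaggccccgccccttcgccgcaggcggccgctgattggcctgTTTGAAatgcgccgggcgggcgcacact
Ect2, chr3:27153849-27153998, minus strand: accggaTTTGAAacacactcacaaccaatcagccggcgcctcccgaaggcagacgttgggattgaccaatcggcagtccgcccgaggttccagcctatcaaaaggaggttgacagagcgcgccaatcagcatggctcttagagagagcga
In Prc1 the letters begin 5 bases before the annotated start, in Kif23 2 bases after it and in Ect2 114 bases before it, with a further match outside the printed stretch. In windows of 300 bases around the start, TTTGAA stood on either strand in 28 of the 38 measured mitosis genes that have a window (73.7%), against 20.2% of 27025 genes with one. A match describes these letters and is no evidence of a site.

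Prc1, which bundles the microtubules of the spindle midzone, read 7.72, 8.04, 8.61 and 7.78 in dysplasia and 6.81, 6.55, 7.24 and 6.45 in unaltered tissue. Pair 3 was highest in both tissues, and the rise was 1.27 ± 0.12 (adjusted p = 0.0176). Kif23, a motor of cytokinesis, rose by 1.26 ± 0.09 and Ect2, the exchange factor that sets the cleavage furrow, by 1.15 ± 0.11. The centrosome kinase Nek2 rose most, by 1.32 ± 0.08 (adjusted p = 0.0115), with 7.54, 7.49, 7.72 and 7.52 in dysplasia against 6.08, 6.27, 6.53 and 6.08. Cdk1 rose by 1.06, the motor Kif11 by 1.05 and topoisomerase Top2a by 1.03. The proliferation marker Mki67 was higher in all 4 pairs, by 0.70 ± 0.15, and was not called (adjusted p = 0.0566), and pair 3 differed least, with 7.67 against 7.39. The random block called 35 of the 44 higher with all pairs, 33 without pair 3, 23 without pair 4, 22 without pair 1 and 7 without pair 2.

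DNA replication genes moved in the same direction. Of 38 measured, 12 rose and 0 fell (median 0.35), and 37 had a mean difference above 0. Uhrf1, which maintains DNA methylation at replication forks, read 7.72, 7.96, 8.40 and 7.74 against 7.10, 7.04, 7.04 and 6.85, a rise of 0.95 ± 0.14 (adjusted p = 0.0322). The helicase subunit Mcm5 rose by 0.65 and the primase Prim1 by 0.63. After quantile normalization 5 of the 38 rose and after cyclic loess 7, against 20 with the random block and 2 when pair 2 was left out of that fit.

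**Figure D3:**
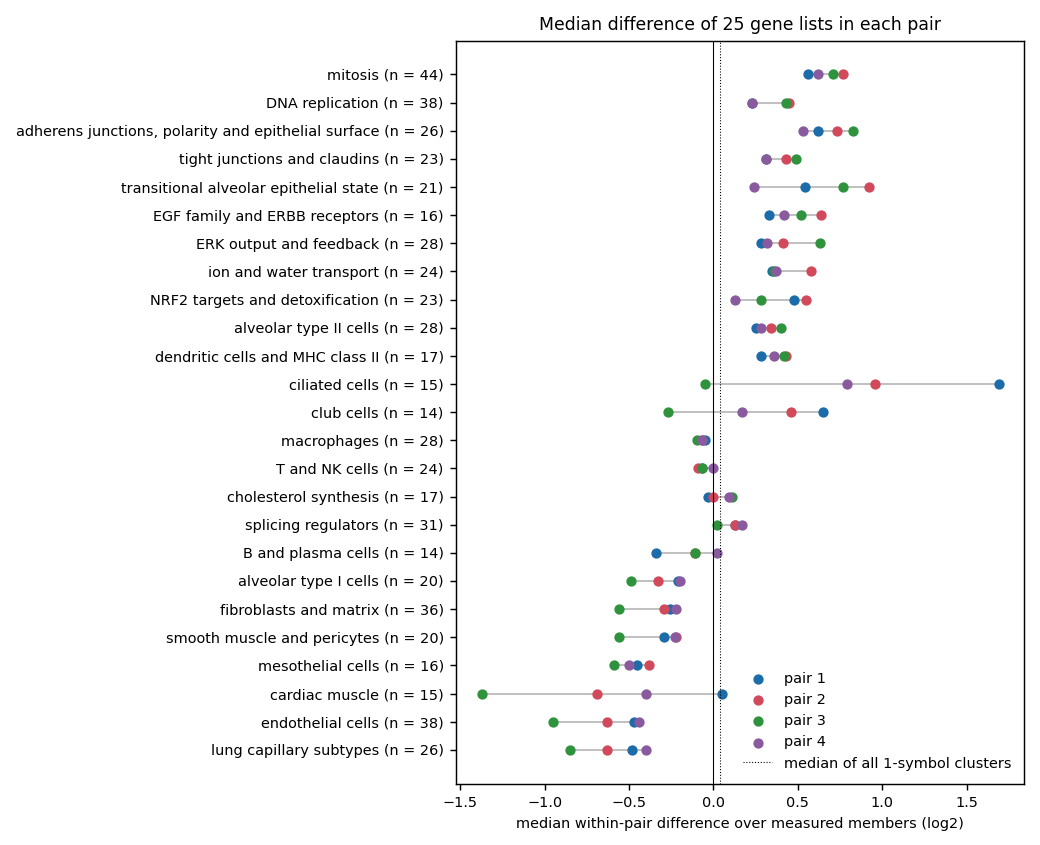
Median within-pair difference (x axis, log2) over the measured members of 25 gene lists (y axis, with the number measured), with a point for each of the 4 pairs, with the dotted line at the median of all 1-symbol clusters, 0.04. Mitosis lies between 0.56 and 0.77 and endothelial cells between -0.95 and -0.44 in the 4 pairs, whereas ciliated cells range from -0.05 in pair 3 to 1.69 in pair 1.

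Ion transport genes were another group with many rises: 13 of 24 rose and 1 fell (median 0.42). After Atp13a4, the largest were the potassium channels Kcnk2 (1.54 ± 0.10) and Kcnk1 (1.48 ± 0.08). The sodium, potassium and chloride cotransporter Slc12a2, which loads epithelial cells with chloride, read 11.44, 11.50, 11.58 and 11.42 in dysplasia against 10.03, 9.99, 10.21 and 9.96. Its values were close to each other within each tissue and the rise was 1.44 ± 0.06 (2.71-fold; adjusted p = 0.00823). The anion exchanger Slc26a4 rose by 1.36 and the chloride channel Ano1 by 1.04. The epithelial sodium channel subunits Scnn1a and Scnn1b and the chloride channel Cftr differed by -0.08, 0.12 and -0.17 and were not called, and the water channel Aqp1, abundant in endothelium, fell by 0.51. With the random block, 14 rose with all pairs and 8 without pair 2.

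Of 23 genes of NRF2 and detoxification, 7 rose and 2 fell (median 0.38). Akr1b8, an aldo-keto reductase, rose from 6.36, 5.93, 6.82 and 6.40 to 7.97, 7.85, 8.10 and 7.91, by 1.58 ± 0.12 (adjusted p = 0.0145). The glutathione transferase Gsta4 rose by 1.48 ± 0.14, Cyp1b1 by 1.25 ± 0.12 and Cyp2s1 by 1.04 ± 0.17. For Gsta4 and Cyp2s1 the unaltered piece of pair 3 was the highest, at 10.31 and 7.89, and that of pair 1 the lowest, at 9.04 and 6.55. Of these 23, 9 rose with the random block and all pairs and 4 without pair 2. Among 27 genes of fatty acid and lipid synthesis 7 rose and 0 fell (median 0.22), led by the elongase Elovl7 (1.22 ± 0.15), and 4 rose after quantile normalization. The random block gave 11 rises among the 27 with all pairs and 4 without pair 2. Of 17 genes of cholesterol synthesis 0 were called by limma, in the paired test and with the random block alike, 0 had an unadjusted p below 0.05 in the paired test, and the list median was -0.01.

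The falls held many genes of vessels, mesenchyme and the pleural surface. Of 38 measured endothelial genes, 0 rose and 17 fell, with a median of -0.62 and 1 member above 0. Pecam1, an adhesion molecule of endothelium, read 11.26, 11.02, 10.80 and 11.36 in dysplasia and 11.85, 11.77, 11.82 and 11.96 in unaltered tissue. All dysplasias lay below all unaltered pieces, and the fall was 0.74 (SE 0.10, adjusted p = 0.0291). Ramp2, the partner of the adrenomedullin receptor, fell by 0.95 (SE 0.09) and the transcription factor Sox7 by 0.94 (SE 0.10). The VEGF receptor Kdr, at -0.70 ± 0.15, was not called (adjusted p = 0.0601), and its lowest unaltered value, 11.12 in pair 3, lay below the dysplasias of pairs 1 and 4, both 11.14. The random block called 25 of the 38 lower, 20 without pair 3 and 3 without pair 2.

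Of 26 genes of lung capillary subtypes, 14 fell and 0 rose (median -0.64), 5 of 26 when pair 1 was left out of the random block and 2 when pair 2 was. Npr3, the clearance receptor of natriuretic peptides, read 8.91, 9.35, 9.67 and 9.06 in dysplasia and 9.40, 10.35, 11.12 and 10.42 in unaltered tissue. It fell by 1.08 within pairs (SE 0.18, adjusted p = 0.0401), although the unaltered piece of pair 1 lay below the dysplasia of pair 3. The endothelin receptor Ednrb fell by 0.91 and the aerocyte marker Apln by 0.77, the guidance ligand Sema3c by 0.84 and the receptor Kit, of general capillary cells, by 0.63.

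Genes of TGF-beta and BMP signalling, a list that includes the ALK1 pathway of endothelium, lay in both directions. Of 31 TGF-beta and BMP genes, 8 fell and 4 rose (median -0.06), and 1 rose after quantile normalization or cyclic loess. The falls included the receptor Acvrl1 (ALK1, -0.59 ± 0.09), its coreceptor Eng (-0.70 ± 0.08), Tmem100 (-0.71 ± 0.11), Bmpr2 (-0.58) and the inhibitory Smad6 (-0.58). Bmp4, a ligand, rose from 8.77, 8.71, 8.63 and 8.86 to 9.48, 9.63, 9.66 and 9.52, by 0.83 ± 0.09 (adjusted p = 0.0221), with no overlap. The target Id1 differed by -0.23 and was not called. With the random block 8 fell, 9 without pair 3 and 0 without pair 2.

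Of 36 genes of fibroblasts and matrix, 6 fell and 1 rose (median -0.27), with 10 falls after quantile normalization, 16 with the random block and 2 in that fit without pair 2. Tcf21, a transcription factor of lung mesenchyme, read 9.61, 9.56, 9.22 and 9.66 in dysplasia and 10.36, 10.57, 10.53 and 10.46 in unaltered tissue. The groups did not overlap and the fall was 0.97 (SE 0.12, adjusted p = 0.0261). Integrin alpha 8 (Itga8) fell by 1.02 and the elastic fibre protein Mfap4 by 0.76, whereas Eln, elastin itself, rose by 0.91 ± 0.08, from 8.82, 8.85, 9.03 and 8.85 to 9.60, 9.86, 10.07 and 9.67. The fibrillar collagens Col1a1 and Col3a1 differed by -0.15 and 0.07 and were not called. Of 20 smooth muscle and pericyte genes 3 fell and 0 rose, the guanylate cyclase subunits Gucy1a1 and Gucy1b1 and the pericyte subunit Cox4i2, and 8 fell with the random block, 1 without pair 1, 0 without pair 2 and 2 without pair 4.

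The 12 largest falls held several of these genes and others of mesenchyme and endothelium. Wnt2, a WNT ligand of lung mesenchyme, read 7.48, 7.09, 6.17 and 7.45 in dysplasia and 8.35, 7.97, 7.71 and 8.12 in unaltered tissue, a fall of 0.99 (SE 0.16, adjusted p = 0.0385). Vegfd, a growth factor of lymphatic vessels, fell by 1.01, the retinol-esterifying enzyme Lrat by 1.02, the sulphate donor synthase Papss2 by 1.05 and the tetraspanin Tspan18 by 1.08. Pde3a, Adcy8 and Scube2 fell by 1.01, 0.97 and 0.97. Car3, a carbonic anhydrase abundant in fat and muscle, had the largest mean fall among called genes, 1.18 (SE 0.19, adjusted p = 0.0381), but read 4.81, 5.31, 6.76 and 4.64 against 5.33, 6.52, 8.15 and 6.25, so that its groups overlapped, and it was not called with the random block (adjusted p = 0.183). In 10 of the 12, all but Car3 and Npr3, the lowest dysplasia value was that of pair 3.

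Of 16 mesothelial genes, which mark the pleural surface, 7 fell and 2 rose (median -0.52). Lrrn4 read 5.93, 6.01, 6.07 and 6.04 in dysplasia and 6.69, 6.65, 6.82 and 6.74 in unaltered tissue, a fall of 0.71 (SE 0.06, adjusted p = 0.0175) without overlap. Gpm6a, Upk1b and Msln fell by 0.81, 0.77 and 0.70, while the 2 that rose were Krt19 and Dpp4, which epithelium also expresses. With the random block, 10 fell, and 3 when pair 2 was left out.

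Of the 5 lists of immune cells, that of dendritic cells and antigen presentation held the most rises. Of its 17 genes 6 rose and 0 fell (median 0.33), against 7.66% rises and 2.51% falls over all 1-symbol clusters, and 9 rose with the random block and 3 in that fit without pair 2. The MHC class II chain H2-Ab1 read 12.07, 12.16, 12.07 and 12.13 in dysplasia and 11.30, 11.45, 11.28 and 11.44 in unaltered tissue, a rise of 0.74 ± 0.06 (adjusted p = 0.0162) without overlap. The lectin Cd209a rose by 0.78 ± 0.06, the integrin Itgae by 0.64 and the chemokine Ccl22 by 0.57. Of 28 macrophage genes 1 rose, the complement gene C1qc (0.51), and 1 fell, Car4 (-0.57), which lung capillaries also express. Of 24 T and NK cell genes 1 rose, Il7r (0.75), and of 14 B cell genes 0 were called by limma in the paired test and 1 with the random block, with 7 at an unadjusted p below 0.05. Of 22 neutrophil and mast cell genes 3 fell, S100a8 by 0.92, Kit and Ngp, and 1 rose, the histidine decarboxylase Hdc (0.83 ± 0.11). Kit is also the receptor of general capillary cells named above, and Ngp was low on all 8 arrays, between 3.02 and 3.94. The random block gave 5 falls in that list with all pairs and 0 without pair 1 or pair 2.

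The size of the changes differed between the pairs. Over the 1-symbol clusters the SD of the difference was 0.37 in pair 1, 0.41 in pair 2, 0.43 in pair 3 and 0.37 in pair 4. At least 2-fold higher were 295, 351, 299 and 226 clusters, and at least 2-fold lower were 65, 110, 263 and 98. Pair 3 thus had the most falls. The median over the called falls was -0.49, -0.56, -0.71 and -0.48 in pairs 1 to 4, and over the called rises 0.53, 0.67, 0.60 and 0.54. These calls were made from the same pairs, so the medians are a description.

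Of the 6 named clusters whose difference varied most between pairs, chosen for that spread, 0 were called. Gabrp, Cyp2f2, Nme5 and Scgb3a2 among them are genes of the airway epithelium. Gabrp, a GABA receptor subunit of airway epithelium, read 9.73, 9.66, 9.72 and 9.60 in dysplasia and 5.91, 7.89, 9.35 and 7.71 in unaltered tissue. The dysplasias were nearly equal and the spread lay in the unaltered pieces, lowest in pair 1 and highest in pair 3. The same order held for Cyp2f2, a cytochrome of club cells, with 13.12, 13.06, 12.94 and 13.12 against 9.91, 11.87, 12.65 and 11.65, and for the cilium gene Nme5, with 7.93, 7.66, 7.79 and 7.80 against 5.04, 6.51, 7.58 and 6.28. For the club cell secretoglobin Scgb3a2, with 9.33, 9.19, 9.14 and 9.29 against 6.15, 8.63, 9.87 and 8.26, the difference turned from 3.18 in pair 1 to -0.73 in pair 3. The remaining clusters were Saxo2 and AY036118, with unaltered values from 5.38 to 7.72 and from 10.24 to 12.62. Those of Saxo2 were also lowest in pair 1 and highest in pair 3.

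The lists of ciliated, club and cardiac muscle genes were likewise lowest in the unaltered piece of pair 1 and highest in that of pair 3, whereas the endothelial list was lowest in pair 3. The mean level of the 15 measured ciliated cell genes was 7.17, 7.21, 7.27 and 7.20 in dysplasia and 5.72, 6.37, 7.28 and 6.31 in unaltered tissue. Of these 15, 1 rose, Rsph1 (1.22 ± 0.20). The random block called 2 of them higher with all pairs, 12 without pair 3 and 0 without pair 1, pair 2 or pair 4. Of 14 club cell genes 2 rose, Cckar (1.72 ± 0.22) and Hp (0.70), and the list's mean level was 8.93, 9.06, 9.0 and 8.97 against 7.77, 8.64, 9.36 and 8.94. Of the 108 named genes that rose, 32 had unaltered values in this order, lowest in pair 1 and highest in pair 3, among them Cckar, Rsph1, Gsta4, Cyp2s1, Hp, Ereg, Epcam, Krt18, Fetub and Gkn2. The order held for 22.7% of the 1144 rises and 13.8% of all 1-symbol clusters, and the part of airway tissue in these rises was not tested. The dysplasias of Gsta4, Cyp2s1, Hp, Ereg, Epcam, Krt18, Fetub and Gkn2 had the same order. Those of Cckar and Rsph1 did not, and those of Gabrp were nearly equal. Cardiac muscle genes, which mouse pulmonary veins express, varied between the unaltered pieces too: the mean level of 15 was 5.18, 5.94, 6.70 and 5.64, against 5.16 to 5.26 in dysplasia. Of these 15, 1 fell, Mybpc3 (-0.33), and the list median difference ran from 0.05 in pair 1 to -1.37 in pair 3.

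**Figure D4:**
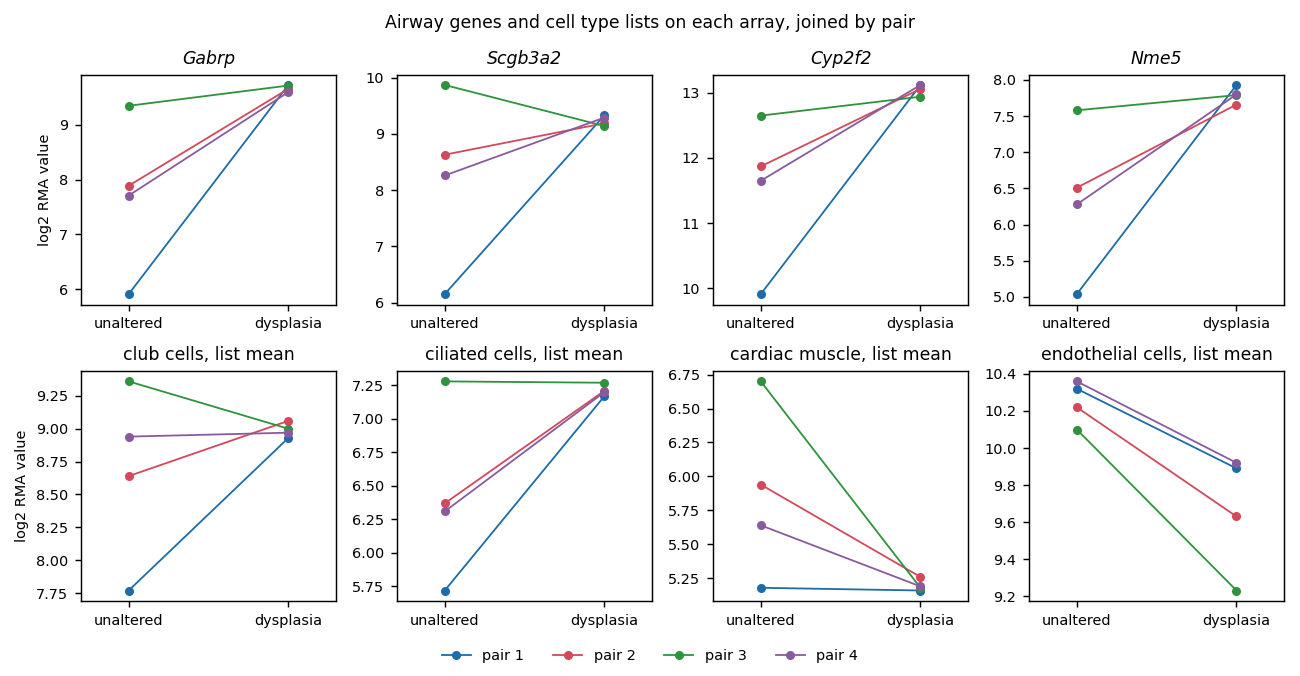
Log2 RMA values (y axes) in unaltered tissue and dysplasia of the 4 pairs for 4 airway genes (upper row) and the mean level of 4 cell type lists (lower row), each pair joined by a line. Airway and cardiac values spread over the unaltered pieces and meet in the dysplasias, where Gabrp lies between 9.60 and 9.73, whereas the endothelial mean is lower in the dysplasia of every pair.

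The changes were then looked up in adenocarcinoma against non-transgenic lung, 4 against 5 arrays, in which limma called 35.4% of the 1-symbol clusters, 15.7% higher and 19.7% lower. Of the 1144 genes that rose in dysplasia, 838 (73.3%) were called higher there, and of the 375 that fell, 340 (90.7%) were called lower. As a share of the tumour's calls these were 35.7% of 2350 and 11.6% of 2941. Ereg differed by 5.03 ± 0.14 there against 2.60 in dysplasia, Atp13a4 by 4.20 against 2.66 and Krt18 by 2.11 against 1.63. Tcf21 differed by -3.65 ± 0.21 against -0.97 and Pecam1 by -2.02 against -0.74. Prc1, at 1.58 against 1.27, and Top2a, at 1.07 against 1.03, lay closer together. No test compared the sizes, and age, which does not overlap between these groups and the pairs, cannot be told apart from tissue. Adenocarcinomas also differ from the non-transgenic lungs in transgene and age (11.5 to 14 against 7 to 11 months). These cannot be told apart from the tumour there. The mix of labelled sexes differed too, with adenocarcinoma 2 and non-transgenic 2, 3 and 4 labelled female. Y-linked genes were low in no adenocarcinoma but in non-transgenic 4 and 5. The share called in the same direction, 77.6% of the 1519, was 87.2% without non-transgenic arrays 4 and 5, whose Y-linked genes were low. It was 59.2% without the 4 arrays that went against the labelled sex. These were adenocarcinoma 2 and non-transgenic 2, 3 and 5, so that of the non-transgenic arrays only 1 and 4 remained. The share of all clusters called in these refits is not given, and the effect of fewer arrays was not tested.

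**Figure D5:**
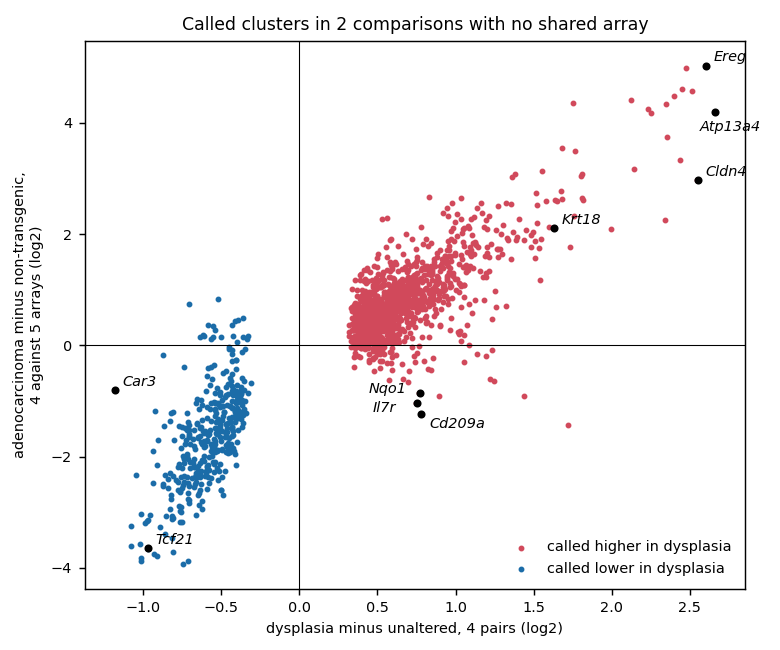
Difference of adenocarcinoma from non-transgenic lung (y axis, log2, 4 against 5 arrays) against the within-pair difference of dysplasia from unaltered tissue (x axis, log2) for the 1519 called 1-symbol clusters, red where higher and blue where lower in dysplasia. Most points lie in the lower left and upper right, and Cd209a, Nqo1 and Il7r are examples in the lower right.

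Of the 1519 calls, 10 (0.658%) were called in the opposite direction in adenocarcinoma. Cd209a, at 7.88, 7.99, 8.10 and 8.02 in dysplasia and 7.16, 7.16, 7.34 and 7.22 in unaltered tissue, rose in the pairs by 0.78 and differed by -1.23 ± 0.23 in adenocarcinoma (adjusted p = 0.0029). Nqo1, a quinone reductase induced by NRF2, rose by 0.77 ± 0.11 and differed by -0.86 ± 0.15 in adenocarcinoma, and Il7r rose by 0.75 ± 0.11 and differed by -1.04 ± 0.12. Among the calls not made in adenocarcinoma were the rises of Nek2 (0.71 ± 0.29 there, adjusted p = 0.102), Cyp2s1 (0.08 ± 0.30, adjusted p = 0.876) and the complex I subunit Ndufa9 (0.51 ± 0.07 in the pairs, 0.08 ± 0.15 in adenocarcinoma).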

How the data were processed

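RNA of laser-dissected mouse lung was amplified and hybridised to Affymetrix Mouse Exon 1.0 ST arrays, per the labels' protocols. The authors deposited log2 RMA values of transcript clusters made in Expression Console from core exons, per the labels; the genome build is not given in the sources used here. The number of arrays limits the precision. Of 23238 clusters, 14939 carried 1 gene symbol, 989 several and 7310 none, and where a gene had several clusters, that of highest mean stood for it.

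The values were fitted as deposited, without a filter, with limma 3.58.1 in R 4.3.3 (tissue, with the pair as a fixed block), and p-values were adjusted by Benjamini-Hochberg over all clusters at a threshold of 0.05. The labels pair the arrays by animal. Deviations from the group means correlated by 0.207, 0.082, 0.155 and -0.0056 between arrays of the same animal and by -0.23 to 0.145 between other combinations. With 4 pairs, an exact two-sided sign-flip test of 1 value cannot go below p = 0.125. The steps were tested on simulated data.

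The transgene is not reported here. The members and the 49 gene lists (1269 genes, 1036 measured) were chosen with earlier results of these data known. Genes were named by a rule, which took genes tied to the transgenic model, the 12 largest mean increases and 12 largest decreases shared by all 4 pairs, up to 4 called members of each list, the 6 clusters of largest spread with a mean of at least 6, and 3 mitosis genes whose promoter holds TTTGAA. The rankings by size and spread left out unnamed gene models, immunoglobulin and T cell receptor segments, olfactory and vomeronasal receptors and small RNA genes. Of 194 genes named, 146 follow from the rule and 48, mostly further list members, many of them not called, were chosen after their values were seen. Promoters are RefSeq's on GRCm38.p6, which held 38 of the 44 mitosis genes.

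Alternatives were no replicate block, a random block, all 17 arrays with labelled sex, quantile normalization, cyclic loess, a minimum mean of 5, 1-symbol clusters alone, trended robust variances, array weights and each pair left out. The random block with each pair left out, and the adenocarcinoma comparison without the arrays named there, were added after seeing the data.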

Additional observations from a re-analysis of the deposited data

Results flagged for a closer look

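A sample was singled out where its gap to the nearest of the 4 values of its group, or of the 4 within-pair differences, exceeded Dixon's critical share of their range. This held for 28 of 622 sets of 4 values, and chance gives about 1 in 20.

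Pair 3 held more of these values than any other pair. Its unaltered piece stood apart from the other 3 for Fetub (8.37), Muc4 (7.68), Cyp1b1 (6.77), Eng (10.94) and Eln (9.03), and its dysplasia for Spry2 (11.09), Smad6 (7.95), Krt14 (4.37) and Lgals3 (9.93). The within-pair difference of pair 3 stood apart for Insm1 (0.31), Spry4 (0.40), Scnn1b (-0.19) and Alas2 (-1.33).

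In pair 2 the unaltered piece stood apart for Map2k1 (9.87), Prim1 (6.23), Scnn1a (10.75) and Krt14 (5.08). The difference of pair 2 stood apart for Krt18 (1.70), Top2a (1.29) and the median of the ion and water transport genes (0.58). In pair 1 the values were the dysplasias of Kcnk2 (8.80) and Mmp12 (8.36), the unaltered piece of Cox4i2 (8.76) and the differences of Cbln1 (1.92) and Kif11 (0.86). In pair 4 they were the dysplasia of Ier3 (9.22) and the differences of Sftpd (0.64) and Lgals3 (-0.11).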

How the results depend on the processing

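The deposited values gave 1881 called clusters, 1435 higher and 446 lower. The random replicate block gave 3688 (2821 higher, 867 lower), all 17 arrays 4558 (3357 and 1201), a minimum mean of 5 3548 (2636 and 912), 1-symbol clusters alone 3638 (2595 and 1043) and trended robust variances 3699 (2772 and 927). Without the replicate block 2445 were called and with array weights 2355. After quantile normalization 878 clusters were higher and 791 lower, and after cyclic loess 931 and 695. The median of all clusters lay at 0.0559 as deposited, -0.03 after quantile normalization and -0.00148 after cyclic loess. Leaving out a replicate gave 0 calls by limma's paired test in each direction, so that no overlap with adenocarcinoma could be computed there. The random replicate block without 1 pair gave 544 to 2634 calls, 473 to 2079 higher and 71 to 555 lower, the lowest each time without pair 2, with 1199 in all without pair 4 and 201 and 204 lower without pairs 1 and 4.

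Of the 155 named genes that were called, 151 kept their call with the random block, 148 with all 17 arrays, 152 with trended robust variances, 135 without the block and all 155 with array weights. Cldn6 (adjusted p = 0.0587), Errfi1 (adjusted p = 0.0833), C1qc (adjusted p = 0.0542) and Car3 lost it in limma with the random block. After quantile normalization and after cyclic loess 18 lost their call, among them in both Abca3, Aqp5, Cebpa, Hnf4a, Lrig1, Mcm5, Cyp2s1, Dpp4, Ccl22, Cdk4 and Csf2, and in cyclic loess also Sftpb and Cldn18. The random block without pair 2 kept 62 of the 155, and without pairs 1, 3 and 4 it kept 112, 144 and 113. None of the 155 changed direction under any of these alternatives; the causes were not tested.

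Of the genes and list medians described here, those that changed sign were uncalled genes and list medians. After quantile normalization these were Lgals3 (-0.05), Gkn1 (-0.04), Spry4 (-0.01), Col3a1 (-0.03) and the medians of the RAS, MEK and ERK kinases (-0.06), chemokines and cytokines (-0.09) and matrix proteases (-0.06). After cyclic loess they were Sftpc (-0.02), Ager (-0.01), Lgals3 (-0.05), Spry4 (-0.01), Col3a1 (-0.04) and the same 3 medians (-0.07, -0.02 and -0.03). With array weights they were Krt14 (0.03), Gkn1 (-0.01), AY036118 (0.12) and the chemokine median (-0.02). Without 1 replicate, in the paired fit and with the random block alike, Krt14 ranged from -0.08 to 0.07 (0.05 without pair 2), Gkn1 from -0.06 to 0.12, Spry4 from -0.01 to 0.13, Fosl1 from -0.34 to 0.03 (0.01 without pair 1) and AY036118 from -0.44 to 0.40. The list medians ranged from -0.01 to 0.38 for club cells, from -0.02 to 0.04 for cholesterol synthesis (0.01 without pair 2) and from -0.06 to 0.06 for chemokines. The share of calls also made in adenocarcinoma, 77.6%, was 73.5% with labelled sex as a covariate, 85.5% after quantile normalization, 68.9% without the replicate block and 64.9% to 85.5% with the random block without 1 pair. On 4 arrays of that comparison Y-linked genes went against the labelled sex, so the covariate cannot adjust for sex. The last 3 settings rest on other sets of calls (1375, 2026 and 422 to 2134, against 1519), so their shares are a description.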

Other observations

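The counts in this section stand beside 7.66% rises and 2.51% falls over all 1-symbol clusters in the paired test. The random block without pair 2 called 544 of all 23238 clusters, against 3688 with all pairs. Receptors and ligands of other growth factor pathways lay in both directions. Of 15 measured genes of FGF and HGF signalling, 3 rose and 1 fell: the FGF receptor Fgfr2 rose by 0.64 ± 0.07 (limma's SE over 4 pairs), the HGF receptor Met by 0.49 ± 0.08 and the HGF activator Hgfac by 0.72 ± 0.10, while Fgfr4 fell by 0.83. Of 30 WNT genes 4 rose and 2 fell, among the rises the ligand Wnt5a (0.52) and the inhibitors Dkk2 and Wif1 (both 0.63). Without pair 2 the random block called 1 of the FGF and HGF genes and 0 of the WNT genes, which it called 3 and 5 higher and 3 and 6 lower with all pairs.

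Of 31 chemokines and cytokines, 4 rose and 2 fell, with 1 rise after quantile normalization or cyclic loess, and 5 rises with the random block and 0 without pair 2. Cxcl17, a chemokine of mucosal epithelium, rose by 1.22 ± 0.15 and Csf2, the growth factor GM-CSF, by 0.85 ± 0.16, whereas Cxcl12, a ligand made by stromal cells, fell by 0.49. The macrophage elastase Mmp12 rose by 0.95 ± 0.07 among 24 matrix proteases and inhibitors, of which 3 rose, and 1 after either rescaling. Of 31 splicing regulators 3 rose, Esrp1, Mbnl3 (0.83 ± 0.09) and Esrp2 (0.69 ± 0.10), and the random block called 3 higher without pair 2 as well. Of 17 G1 cyclins and CDK inhibitors 3 rose, Ccnd1, Cdk4 (0.59) and Cdk2 (0.49), and 0 of them were called without pair 2. Among 26 immediate early genes 4 rose and 3 fell, among them Klf4, a factor of epithelium and endothelium, which fell by 0.73 (SE 0.06), and the 6 rises of that list with the random block were 1 without pair 2.

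Of 12 measured genes of red blood cells and haem synthesis, 1 rose and 1 fell, and the list median was 0.04. Alas2, an erythroid enzyme of haem synthesis, fell by 0.93 and the transferrin receptor Tfrc rose by 0.75. Of 24 genes of protein folding and ER stress limma called 0 in the paired test and 1 with the random block, and 7 had an unadjusted p below 0.05.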
